A study of Arabidopsis thaliana with 2 samples.

Results

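The genes described here are 7 regulators of organ boundaries in Arabidopsis thaliana. They are BLADE ON PETIOLE 1 and 2 (BOP1, AT3G57130, and BOP2, AT2G41370), LIGHT SENSITIVE HYPOCOTYLS 3 and 4 (LSH3, AT2G31160, and LSH4, AT3G23290) and CUP-SHAPED COTYLEDON 1, 2 and 3 (CUC1, AT3G15170, CUC2, AT5G53950, and CUC3, AT1G76420). They were chosen by name among 37899 nuclear genes, and a peak belonged to one of them when the authors' annotation gave its promoter as the nearest or named its locus for the position of the peak. By this rule 7 of the 529 peaks belonged to 4 of the 7 genes.

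The peaks come from chromatin immunoprecipitation and sequencing (ChIP-seq) of the floral regulator LEAFY (LFY) in inflorescences. Per the labels, there was 1 library precipitated with rabbit polyclonal whole serum against LFY and 1 input library that saw no antibody. Both came from ap1 cal1 mutants, which carry mutations in APETALA1 and CAULIFLOWER, with the construct 35S;LFY-GR, grown for 4 weeks and harvested 4 h after treatment with 10 µM dexamethasone. The constitutive 35S promoter drives LFY-GR, in which LFY is fused to the hormone-binding part of the glucocorticoid receptor, outside the places where LFY is normally made, and the serum does not tell this fusion from native LFY. Neither library had a replicate, and read counts were not used here, so depth is unknown and no value below carries an error between libraries. Nothing in a peak list measures cell type, so the labelled tissue could not be checked against its markers.

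Organ boundaries are narrow bands of slowly dividing cells that separate a new leaf or flower from the meristem and from its neighbours. CUC1, CUC2 and CUC3 are NAC-domain transcription factors that set up these bands, and the transcripts of CUC1 and CUC2, but not of CUC3, are cut under the direction of the microRNA miR164. LSH3 and LSH4 are nuclear proteins of the ALOG family made in boundary cells, and both are known to act downstream of CUC1. BOP1 and BOP2 are BTB-ankyrin co-regulators made at the base of lateral organs, where they pattern leaves and flowers and act with LFY in giving floral meristems their identity.

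The boundary genes fell into those with a pair of peaks around the transcription start site (TSS), those with no peak and BOP2 between them. BOP1, LSH3 and CUC3 had 2 peaks each, BOP2 had 1, and LSH4, CUC1 and CUC2 had none. Each of the 3 families thus had at least 1 gene with a peak, and in the LSH and CUC families at least 1 close relative had none. Over all nuclear genes 1.5% had a peak by the same rule (95% Wilson interval 1.39 to 1.63), and 0.058% had 2 or more (0.0383 to 0.0879, for counting error only). These shares describe the list. They also count the non-coding genes of the gene table, so they may differ for protein-coding genes. The genes were picked with earlier results of these data known, so 4 of 7 and 3 of 7 were not tested against them.

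**Figure D1:**
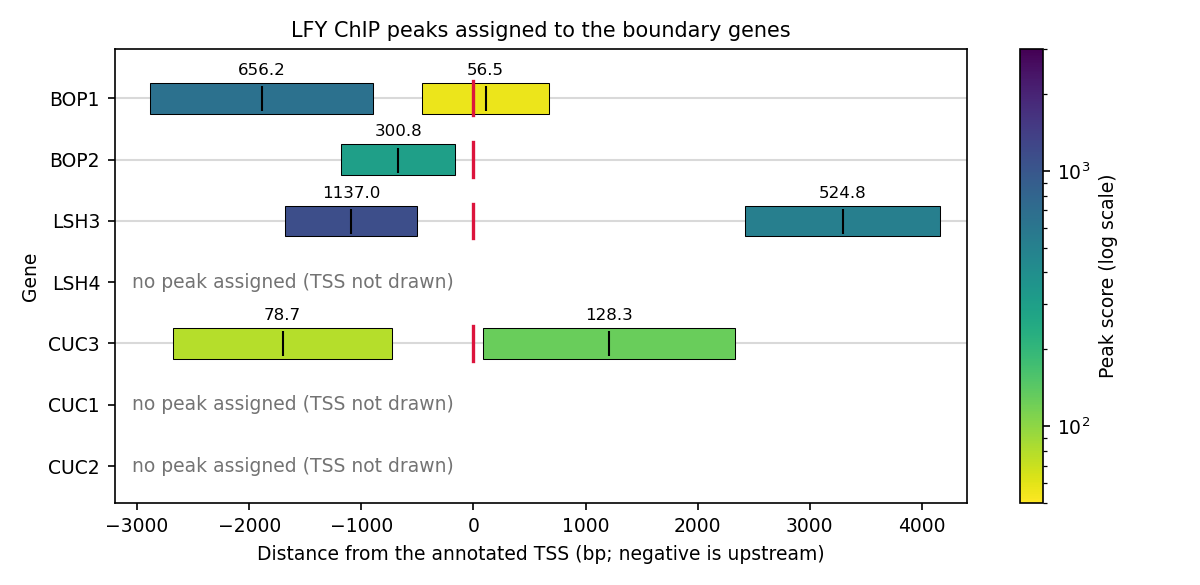
Peaks of the 7 boundary genes along the distance from the annotated TSS in bp (negative values are upstream). Bars span each peak and are coloured and labelled by score, black ticks mark peak centres, and red lines mark the TSS. Every gene with a peak has one centred upstream, at 671 to 1887 bp from the TSS, and LSH4, CUC1 and CUC2 have no bar.

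LSH3, also known as ORGAN BOUNDARY 1, had the strongest peak of the group. That peak lay at chr2:13276136-13277307 (TAIR10) with a score of 1137.0, the authors' own value for the peak, which places it 8th of 529. It was 1172 bp wide and centred 1090 bp upstream of the TSS, so that its near edge stopped 504 bp short of the start site. The second LSH3 peak, at chr2:13280237-13281971, scored 524.8 (rank 64), was 1735 bp wide and was centred 3293 bp downstream of the TSS. The annotation classed both LSH3 peaks as intergenic, so the downstream one was centred past the 3' end of the gene.

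The start site of LSH3 therefore stood in a peak-free stretch of 2929 bp between a stronger upstream peak and a weaker downstream one. The protein-coding gene that follows LSH3 in the chromosomal order is AT2G31170, which encodes an organellar cysteine-tRNA ligase, and the one before it is AT2G31150. Neither had a peak of its own. The nearest peak of any other gene was 26.9 kb from the upstream LSH3 peak. It was assigned to CLE5, a small signalling peptide gene of the CLAVATA3/ESR-related family, and scored 75.4.

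LSH4, the close relative of LSH3, had no peak. Of the 10 genes of the LSH family, 2 had a peak, beside 1.5% of all nuclear genes. Besides LSH3 this was LSH2 (AT3G04510), the 1 gene with a peak among the 8 besides LSH3 and LSH4. The LSH2 peak, at chr3:1215581-1217613, scored 617.2 (rank 46), above the downstream LSH3 peak and below the upstream one. It was 2033 bp wide and centred 361 bp downstream of the LSH2 TSS, which it covered, reaching from 655 bp upstream to 1377 bp downstream. The annotation placed its centre at the transcription termination site of the neighbouring gene AT3G04520, so 2 genes were named for the same peak. LSH3 and LSH2 differed in layout, with a peak on either side of the start site in LSH3 and 1 peak across it in LSH2.

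BOP1 had the most uneven pair. Its stronger peak, at chr3:21144675-21146667, scored 656.2 (rank 40), was 1993 bp wide and was centred 1887 bp upstream of the TSS in sequence classed as intergenic. The weaker peak, at chr3:21147100-21148234, scored 56.5 (rank 486), close to the lowest score in the list (50.0). It was 1135 bp wide and centred 109 bp downstream of the TSS, and it covered the start site from 458 bp upstream to 676 bp downstream. The scores of the pair differed 11.6-fold, and 432 bp separated the 2 peaks. The scale of the score is not stated, so a ratio of scores does not measure a difference in binding. The distances refer to transcript model AT3G57130.2, whereas the annotation put the weaker peak in the promoter of model AT3G57130.1.

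BOP2, which acts redundantly with BOP1, had 1 peak. It lay at chr2:17240603-17241619 with a score of 300.8 (rank 124), a width of 1017 bp and a centre 671 bp upstream of the TSS, in the class promoter-TSS. It reached from 1179 to 163 bp upstream and so stopped short of the start site, which the weaker BOP1 peak covered. Set side by side, the upstream peak of BOP1 scored 656.2 and that of BOP2 300.8, and the BOP2 peak lay closer to its gene. The other 4 genes of the family, NPR1, NPR2, NPR3 and NPR4, include the salicylic acid receptors of plant immunity. None of them had a peak, which is near the share of 1.5% over all nuclear genes.

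The surroundings of the BOP genes differed as well. The nearest peak of another gene was 127 kb away from the BOP1 pair. At BOP2 it was 8.08 kb away, at chr2:17249700-17250863, with a score of 752.0 (rank 26), higher than that of BOP2 itself. It was intergenic and was assigned to AT2G41380, a methyltransferase-like gene, at 1660 bp upstream of that gene's TSS. AT2G41380 follows BOP2 as the third gene in the chromosomal order, and BOP2 was not the nearest promoter of this peak.

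CUC3 had the weakest peaks of the group after the second BOP1 peak, and 1 of them was the widest. Its stronger peak, at chr1:28671600-28673852, scored 128.3 (rank 272), was 2253 bp wide and was centred 1208 bp downstream of the TSS, in intron 2 of the 2 introns of the gene. It began 82 bp downstream of the start site and ended 2334 bp downstream. The other peak, at chr1:28674661-28676612, scored 78.7 (rank 385), was 1952 bp wide and was centred 1702 bp upstream in intergenic sequence. The gap between them was 808 bp and held the start site.

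At CUC3 the peak inside the gene was thus the stronger one, whereas at LSH3 and BOP1 the upstream peak was. The 2 scores at CUC3 differed 1.63-fold, against 2.17-fold at LSH3 and 11.6-fold at BOP1. Both CUC3 peaks scored below 133, the median of all peaks. The nearest peak of another gene was 107 kb away, and neither neighbouring protein-coding gene, ATL8 nor the phosphate transporter gene PHT1;9, had one.

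CUC1 and CUC2, which act redundantly with CUC3 in separating the cotyledons and later organs, had no peak. None of the 9 other NAC genes of the list used here had one either. These were NAC1, ORE1, NAC100, ANAC079, ORS1, ANAC058, ANAC038, ANAC046 and ANAC087, the first 4 of which are miR164 targets. CUC3 was the 1 gene of 12 on that list with a peak. With a peak at 1.5% of all nuclear genes, none among the other NAC genes is near that share. A link to miR164 was not tested.

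The position of LSH4, CUC1 and CUC2 relative to the peaks was read from the order of genes alone. LSH4 was 2 genes from AT3G23270, a gene of the RCC1-like class with a weak peak in an exon (score 56.7), and 158 genes from the next on the other side. CUC1 was 8 genes from AT3G15110 (score 76.1) and 16 genes from the floral promoter gene SPL5 (score 340.5). CUC2 stood apart, with 82 genes to AT5G53310 on one side and 76 to AT5G54450 on the other. In none of the 3 cases did a directly adjacent protein-coding gene have a peak. A region below the authors' peak threshold leaves no trace in the list, so the absence of a peak does not show the absence of binding.

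By rank the 7 peaks spread over most of the list, from 8 to 486 of 529. Their scores lay between 56.5 and 1137.0, in a list that ran from 50.0 to 2952.3. Their median was 300.8, against 133 for all peaks, and 4 of the 7 were among the 133 highest-scoring peaks, which by construction make up 25.1% of the list. These 4 were both LSH3 peaks, the upstream BOP1 peak and the BOP2 peak. The remaining 3, both CUC3 peaks and the BOP1 peak at the start site, stood in the lower-scoring part. Width did not follow score, since the widest peak of the group was that in CUC3 (2253 bp, 45th widest of 529) and the strongest LSH3 peak was near the median of all peaks, 1168 bp.

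**Figure D2:**
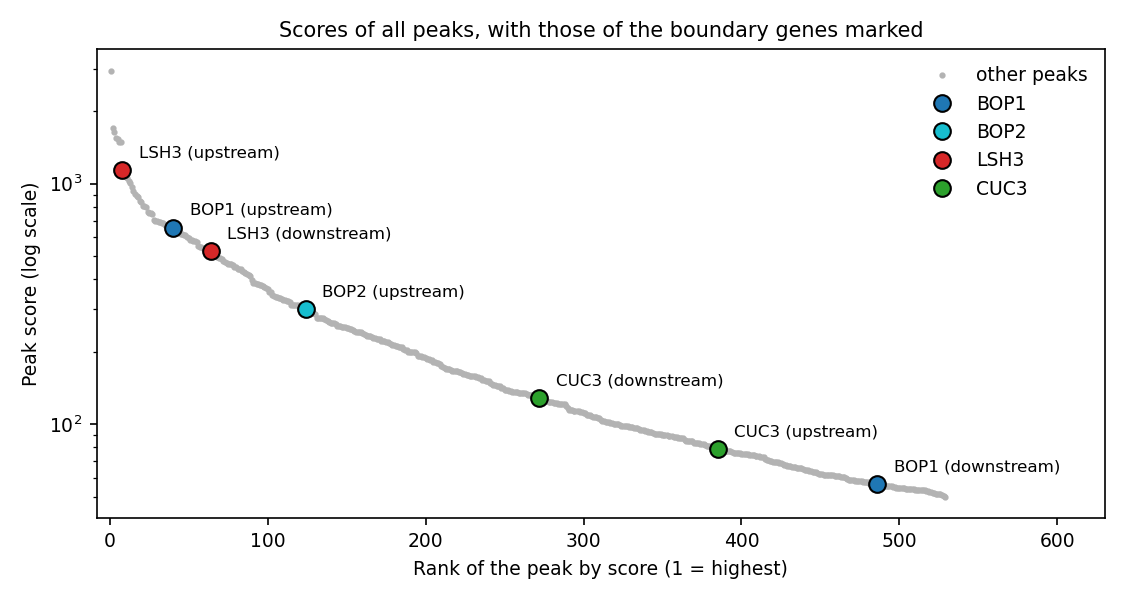
Score of each of the 529 peaks on a log axis against its rank, with the peaks of BOP1, BOP2, LSH3 and CUC3 as coloured points and all others in grey. The LSH3 peaks stand at ranks 8 and 64, the CUC3 peaks at 272 and 385, and the BOP1 peaks at 40 and 486.

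By position, 4 of the 7 peaks were centred upstream of the TSS and 3 downstream, beside 57.1% upstream among all peaks, so the split of these peaks was near that of the list. By class, 4 were intergenic, 2 were in promoters and 1 was in an intron, whereas 22.9% of all peaks were intergenic. The intergenic ones were both LSH3 peaks and the upstream peaks of BOP1 and CUC3.

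All 4 genes shared an upstream peak, and these 4 peaks had a stretch in common. Measured from each gene's TSS, each of them covered the 289 bp from 1179 to 891 bp upstream. Among the 512 genes named as nearest to a peak, 27.1% had a peak over the position 1000 bp upstream. That position was picked after the values were seen. The median width was 1735 bp for the 7 peaks of the boundary genes and 1168 bp for all peaks. The share is not matched for width or for the number of peaks per gene. At 1500 bp upstream 3 of the 4 genes had a peak, all but BOP2, against 17.6% of the 512 genes. At 500 bp only BOP2 had one, against 46.7%. Other peaks came close to that position, since the upstream LSH3 peak ended 504 bp upstream and the weaker BOP1 peak began 458 bp upstream. Of these 3 positions, 500 bp upstream was the one most often covered in the list, and the upstream peaks of BOP1, LSH3 and CUC3 lay beyond it.

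To measure gaps, pairs were counted by the nearest promoter alone, without the locus in the annotation, because a distance refers to the nearest promoter. By this narrower rule BOP1, LSH3 and CUC3 were 3 of 17 genes with exactly 2 peaks, whereas the wider rule gave 22 genes of the gene table with 2 or more, KNAT2 among them. The 17 made up 3.32% of the 512 genes nearest to a peak, and none of the 512 had more than 2. The gap of 432 bp at BOP1 was the 5th shortest of the 17, that of 808 bp at CUC3 the 8th and that of 2929 bp at LSH3 the 13th. The median of all 524 gaps between neighbouring peaks was 108 kb. Of these gaps, 9 were no longer than the gap at BOP1, 14 no longer than that at CUC3 and 35 no longer than that at LSH3. Peaks that share a nearest promoter lie close together by construction, with gaps of 55 to 4612 bp over the 17 genes.

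In all 3 pairs the centres lay on opposite sides of the TSS, as they did in 9 of the other 14 pairs. The remaining 5 had both centres upstream. The start site stood in the gap itself at LSH3 and CUC3, and in 5 of the other 14 genes. At BOP1 it lay under the weaker peak. The peak farther upstream scored higher at LSH3 and BOP1 and in 8 of the other 14. With 3 genes against 14, these counts do not set the boundary genes apart.

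**Figure D3:**
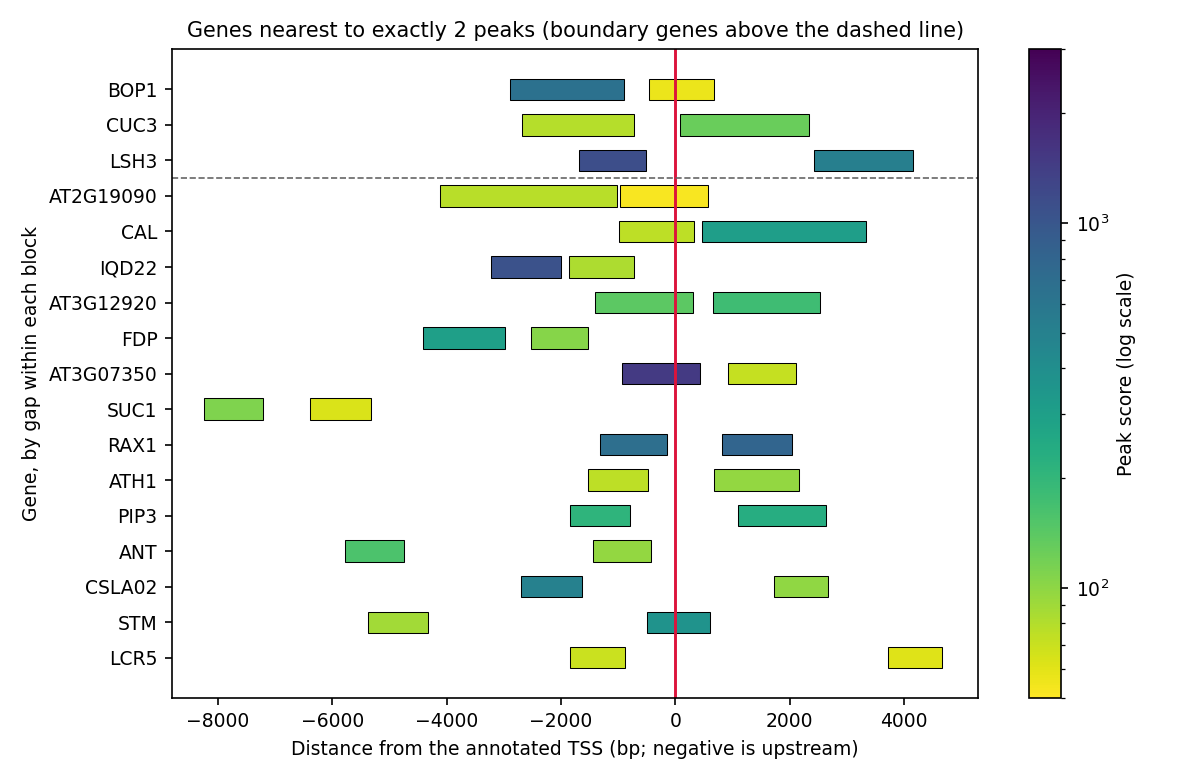
Peaks of the 17 genes that were the nearest promoter of exactly 2 peaks, along the distance from the TSS in bp (red line), coloured by score on a log scale. BOP1, CUC3 and LSH3 stand above the dashed line and the other 14 genes below it, each block ordered by gap, which ranges from 55 to 4612 bp over the genes below the line.

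The genes whose 2 scores were most like those of each boundary gene were found by the distance between the log10 scores of the higher and the lower peak, over the 17 genes. For LSH3 the nearest was RAX1 (802.3 and 685.4, distance 0.191), a MYB gene of axillary meristems, and the next, PIP3, an aquaporin gene, was much farther (distance 0.796). For CUC3 they were the sucrose transporter gene SUC1 (109.7 and 63.4, distance 0.116) and ATH1 (97.7 and 74.9, distance 0.120), a BELL homeobox gene of the stem base. For BOP1 they were CSLA02, a mannan synthase gene (502.3 and 98.7, distance 0.269), and IQD22, which encodes a calmodulin-binding protein (1074.2 and 83.3, distance 0.272). CUC3 and ATH1 were alike in layout too. Each had its stronger peak inside the gene, in intron 2 at CUC3 and exon 3 at ATH1, a weaker intergenic peak upstream, and the start site in the gap, of 808 bp at CUC3 and 1148 bp at ATH1.

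Other genes of the boundary pathway were read from lists of 54 genes that are not among the 7. The lists were made with earlier results of these data known, so their counts were not tested against a share. Of the 54 genes, 7 had a peak, beside 1.5% of all nuclear genes. At that share, a short list without a peak does not set its genes apart. None of the 12 regulators of CUC genes had one, a list that holds the genes of miR164 itself (MIR164A, MIR164B and MIR164C), the TCP genes TCP2, TCP3, TCP4, TCP10 and TCP24, the NGATHA-like repressors NGAL1, NGAL2 and NGAL3, and RABBIT EARS. Of 14 other boundary genes, 2 had a peak. RAX1 had one in exon 3 (802.3) and one 733 bp upstream (685.4), and HANABA TARANU (HAN), a GATA factor gene of the boundary between meristem and organs, had one 2726 bp upstream (53.2, rank 514). LOF1, LOF2, LOB, JLO, LAS, RAX2, RAX3, SUP, PTL, AS1, AS2 and PUCHI had none.

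The KNOX and BELL homeobox genes, which keep cells of the meristem undifferentiated and interact genetically with BOP1 and BOP2, had peaks at 4 of 7 genes. Over all nuclear genes 1.5% had a peak and 0.058% had 2 or more. This list too was made with earlier results known, and its counts were not tested. SHOOT MERISTEMLESS (STM) had a peak over its start site (367.4, centre 55 bp downstream) and another 4846 bp upstream (88.5). KNAT2 had 2 in its intron 3 (464.6 and 253.1), the stronger of which had AT1G70518 as its nearest promoter. KNAT6, which is expressed in boundaries, had one in its intron 3 (143.8), with another gene as the nearest promoter. ATH1, which BOP1 and BOP2 are known to activate, had the pair given above. BP, PNY and PNF had none. By the wider rule the counts were thus the same as in the 7 boundary genes, with a peak at 4 genes and 2 peaks at 3 of these. By the nearest promoter alone they were not. KNAT6 then had no peak and KNAT2 lost its stronger one, whereas the boundary genes kept all 7 peaks. By the locus in the annotation alone it was the boundary genes that lost peaks. They had 3 peaks and 0 pairs, with none at LSH3. STM, KNAT2, KNAT6 and ATH1 each kept a peak by that rule, and KNAT2 kept both of its own.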

How the data were processed

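Per the file headers, the authors deposited 1 list of peaks for LFY against a contrast, annotated with HOMER on tair10, and the contrast is not named there. The header calls the precipitated set LFYGR2, whereas the sample is titled LFYGR, so the list is tied to this library by its construct name only. Per the submitters' processing notes, FastQC, MACS 1.4 and HOMER were used with TAIR10. No source used here gives the aligner, the threshold, the treatment of duplicates, any pooling or the limits of the annotation classes. Per the file headers, the value of each peak is a peak score, whose scale is not stated. It was used only to rank and describe peaks within the list, and "stronger" and "weaker" refer to it. Ratios and log10 distances of scores compare these values alone and do not measure binding. Other deposited values are positions and, measured from the centre of each peak, the distance to its nearest TSS, in bp.

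A gene had a peak when its promoter was the nearest or its locus stood in the annotation. Of 584 loci named by the list, 570 were in the RefSeq gene table (TAIR10.1), used for names and gene order only. Peak edges relative to the TSS are the deposited distance plus or minus 0.5 of the width, rounded to whole bp. The genes named are the 7 boundary genes, listed genes with a peak, and the 2 genes most alike in score for each pair. Neighbouring genes and listed genes without a peak are named as well, chosen after their values were seen. The members, lists and rules were chosen with earlier results of these data known. With 1 library of each kind no test was made. Scripts were tested on simulated data. Python 3.11.15, pandas 2.3.3, NumPy 2.4.6, SciPy 1.17.1 and matplotlib 3.10.9 were used. Alternatives were stricter scores, other assignments, limits on distance and joined peaks. Motifs in promoters and identity between proteins need sequences and were not analysed here.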

Additional observations from a re-analysis of the deposited data

How the results depend on the processing

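BOP1 and BOP2 kept a peak under all 7 alternatives for score, assignment and distance. At BOP1 no single peak was kept under all of them. The score limits kept only its upstream peak. Naming by annotation alone and the limit of 1 kb kept only its weaker peak at the start site. The number of boundary genes with a peak stayed at 3 or 4 of 7, except within 1 kb of the TSS, where it was 2. The share of all nuclear genes with a peak, 1.5% in the whole list, changed as well. It was 0.755% for the 265 and 0.377% for the 133 highest-scoring peaks, and 0.905% for scores of 100 or more. By annotation alone it was 1.04%, by nearest promoter alone 1.32%, within 1 kb 0.865% and within 3 kb 1.36%. Naming by annotation alone removed LSH3, and keeping the 265 or the 133 highest-scoring peaks removed CUC3. In both of these, 4 peaks and 1 pair (LSH3) were left, with a median score of 590.5. With scores of 100 or more there was 1 pair and a median of 524.8. By annotation alone there were 3 peaks, 0 pairs, 1 upstream peak and a median of 128.3. Within 1 kb of the TSS there were 2 peaks, 0 pairs, 1 upstream peak and a median of 178.6. Within 3 kb there were 6 peaks, 2 pairs and a median of 214.6, since the downstream LSH3 peak was lost. Of the related genes, 4 had a peak among the 133 highest-scoring peaks and 3 within 1 kb, against 7 in the whole list. Joining peaks less than 500 bp apart left 2 pairs, since those of BOP1 merged. Over the position 500 bp upstream, an alternative chosen after seeing the data, 1 gene had a peak, against 46.7% of the 512 genes. Medians under a score limit rise by construction. The planned motif alternative was not run. No paired analysis was possible because there was 1 library of each kind, and no replicate could be left out. Without read counts, neither the depth nor the precision of a score is known.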

Other observations

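The pairs below were counted by the nearest promoter alone, and the genes were picked out after their values were seen. Among the 14 genes besides BOP1, LSH3 and CUC3, those whose start site stood in the gap, as at LSH3 and CUC3, were RAX1, ATH1, LCR5, CSLA02 and PIP3, where the 2 distances at PIP3 refer to different transcript models. RAX1, LSH3 and PIP3 were the 3 genes of this kind in which both scores were above the median of all peaks, 133. The widest ratio of scores among the 17 pairs was 20.9-fold at AT3G07350, followed by 12.9-fold at IQD22 and 11.6-fold at BOP1. At all 3 the peak farther upstream was the stronger one.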
